A study of Mus musculus with 12 samples.

Results

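Sgk1 (ENSMUSG00000019970) is 1 gene among the 17419 in the deposited table. It was picked because its level fell early and strongly when mouse fibroblasts were labelled with 4-thiouridine (4sU), so its own levels and ratios are described here without a test. The cells were NIH-3T3, an immortalised mouse fibroblast line of wild-type genotype, grown in medium with newborn calf serum. The 4sU dose was 800 µM and the exposure 15, 30, 60, 90 or 120 min, an unlabelled group received none, and 2 replicates, called A and B, make up each of these 6 groups (12 libraries in all). Nothing in the labels says whether the replicates came from separate cultures, so p-values measure only the spread between these libraries, which may be technical. 4sU is a uridine analogue that enters newly made RNA, and iodoacetamide treatment makes it read as C. These conversions give the new-to-total ratio (NTR), the fraction of a transcript's molecules that arose after 4sU was added. The series asks how the labelling time biases quantification.

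Sgk1 encodes serum- and glucocorticoid-regulated kinase, a relative of Akt in the AGC family. Serum, glucocorticoids and osmotic stress switch its transcription on within a short time, and both the mRNA and the protein are known to be unstable. The kinase becomes active when mTORC2 and then Pdk1 phosphorylate it. It acts on the ubiquitin ligase Nedd4l, on Ndrg1 and on Foxo transcription factors, and through Nedd4l it holds sodium channels at the cell surface.

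In GENCODE M21 (GRCm38, which need not be the authors' build) Sgk1 lies on the plus strand of chromosome 10, from 21882184 to 21999903, and no other annotated gene overlaps it (0 genes). The principal transcript, Sgk1-201, has 12 exons. Its 3′ UTR, all in the last exon, runs for 1076 bases from 21998828 to 21999903. ATTTA, the core of the AU-rich elements known from unstable mRNAs, occurred 3 times in this UTR. These sites are shown because rapid turnover is the feature the Sgk1 data turn on. Each stretch of 30 bases is from the transcript strand, with ATTTA in capitals.

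Site 1, chr10:21999424-21999453: tttggaagataaATTTAtgtgtagactgtt
Site 2, chr10:21999635-21999664: aaaacgggcattATTTAtgttttttttccc
Site 3, chr10:21999733-21999762: ataacactagatATTTAaacttacaggctt

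The 3 matches stand apart from each other, and the longer form TTATTTATT was not among these letters (0 matches). Of the 1558 tested genes with a 3′ UTR within 20% of this length, searched on the transcript strand only, 75.4% held ATTTA at least once, 30.0% held it at least 3 times and 6.93% held TTATTTATT. Uridine is where 4sU enters, and T made up 28.9% of Sgk1-201. The median over tested genes was 24.4%, with the 10th and 90th percentiles (from all 11115 genes with a transcript) at 20.0% and 29.2%.

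Total reads per library were between 9917026 and 13739380, and Sgk1 had between 5324 and 11750 of them. A mean count of 100 or more was reached by 9065 genes, and only 180 of them exceeded Sgk1. The no4sU replicates stood apart from each other more than the labelled pairs did. The SD over genes of their log2 difference was 0.21, against 0.11 to 0.12 in the labelled groups, and across genes, which are no independent replicates, it ran with length at a Spearman rho of -0.576. For Sgk1 itself the no4sU replicates differed by only -0.06 on the log2 scale (A minus B), and values are given against the 15 min libraries as well. All 8 fibroblast markers examined had reads, with a summed level of 15775 to 19408 CPM (depth-scaled read counts, with TMM factors). The summed levels were 4.28 to 6.88 CPM for leukocyte markers, 0 to 0.582 for epithelial and 0.750 to 1.70 for endothelial markers. These sums cover the genes present in the data, 2 of 4 leukocyte, 2 of 4 epithelial and 3 of 3 endothelial markers.

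Sgk1 fell at each step from 15 to 120 min. Its level was 808 and 841 CPM without 4sU in replicates A and B, and 838 and 864 CPM at 15 min. It was 748 and 794 CPM at 30 min, 603 and 670 CPM at 60 min, 576 and 585 CPM at 90 min, and 495 and 501 CPM at 120 min. The unlabelled and 15 min libraries overlapped. Every later group lay below the group before it without overlap, and the 6 libraries from 60 to 120 min all lay below the other 6. This held for 2.56% of the 11564 genes tested, and since the gene was chosen for its fall, nothing is read from that share.

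With 15 min as the reference, Sgk1 changed by a log2 fold of -0.14 ± 0.0539 (SE) at 30 min and -0.42 ± 0.0541 at 60 min. It then reached -0.55 ± 0.0543 at 90 min and -0.77 ± 0.0545 at 120 min. The level left at 120 min was 58.5% of that at 15 min. Against the unlabelled libraries it was 0.05 ± 0.0537 at 15 min and -0.10 ± 0.0538 at 30 min. It was -0.37 ± 0.0540 at 60 min, then -0.51 ± 0.0543 (90 min) and -0.73 ± 0.0544 (120 min). At 60 min replicate A carried more of the fall than B. Without 60 min replicate A the change against 15 min was -0.35, and without replicate B it was -0.50. The change at 120 against 15 min stayed between -0.80 and -0.75 when any single 15 or 120 min library was left out.

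**Figure D1:**
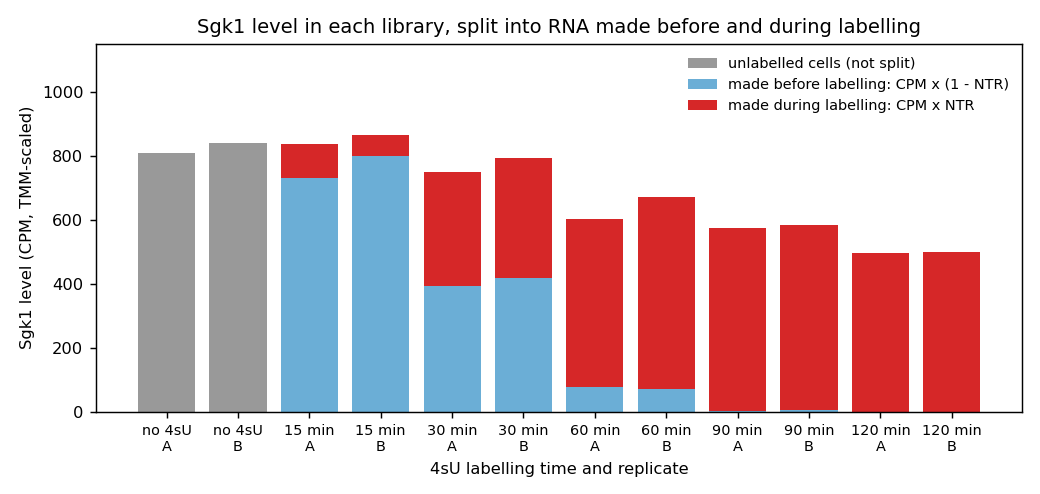
Bars give the Sgk1 level (CPM, y axis from 0) in each of the 12 libraries, ordered by labelling time on the x axis. In labelled libraries the bar is split by the NTR into RNA made before labelling (blue) and during it (red), and unlabelled libraries (grey) are not split. The blue part shrinks from 730 and 799 CPM at 15 min to 0 at 120 min, while the whole bar falls from 838 and 864 to 495 and 501 CPM.

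The RNA of Sgk1 was replaced almost completely within the experiment. At 15 min the NTR was 12.8% in replicate A (90% interval of the authors' posterior, 12% to 13.8%) and 7.47% in replicate B (6.89% to 8.09%). These intervals do not overlap, and the median NTR over genes differed in the same direction between these libraries, at 1.34% in A and 0.67% in B. At 30 min the replicates lay together, at 47.5% (45.9% to 49.0%) and 47.3% (45.5% to 49.0%). At 60 min the NTR was 87.4% (85.6% to 89.1%) and 89.6% (88.0% to 91.2%). At 90 min it was 99.7% (98.0% to 99.9%) and 99.3% (97.6% to 99.8%), and at 120 min it was listed as 1 in both libraries, with lower bounds of 99.4% and 99.7%.

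Among these 9065 better-covered genes (mean count 100 or more) the median NTR at 60 min was 15.5%, and 44 genes were above Sgk1. Among the 498 genes with at least 0.5 times the mean count of Sgk1, none had a higher NTR (0 genes), and the median was 8.06%. Sgk1 thus joined a high level with a fast turnover, a combination few other transcripts in these cells had.

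Multiplying the level by the NTR separates RNA made during labelling from RNA made before it. The older part of Sgk1 was 730 and 799 CPM at 15 min, 393 and 419 CPM at 30 min, 76.0 and 69.5 CPM at 60 min, and 1.67 and 4.27 CPM at 90 min. Between 15 and 30 min 53.8% and 52.4% of it was left in A and B, between 30 and 60 min 19.3% and 16.6%, and between 60 and 90 min 2.20% and 6.15%. Expressed as half-lives these steps were 16.8 and 16.1 min, then 12.7 and 11.6 min, then 5.45 and 7.46 min. By these point values the older part declined faster at each later step. The last step rests on NTR values close to 1, where the intervals of the older part ran from 0.691 to 11.4 CPM in A and from 1.23 to 14.3 CPM in B. A faster decline from 60 to 90 min is therefore not established. The first step rests on the NTR at 15 min, which differed between the replicates.

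A straight line through the logarithm of the older part from 15 to 90 min gave a half-life of 9.32 min ± 0.891 (SD, n = 2). Without the 90 min libraries it was 13.1 min ± 0.728. The half-life calculated from the NTR alone, which assumes a constant level, was 75.6 and 134 min after 15 min of labelling. After 30 min of labelling it was 32.3 and 32.5 min, and after 60 min of labelling 20.1 and 18.3 min. The lower bounds of the NTR allowed at most 15.9 and 16.8 min by 90 min of labelling, and at most 16.4 and 14.2 min by 120 min. The level was not constant, as given above.

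RNA made during labelling accumulated and then declined. It amounted to 108 and 64.5 CPM at 15 min, 355 and 375 CPM at 30 min, 527 and 601 CPM at 60 min and 574 and 581 CPM at 90 min. At 120 min it was 495 and 501 CPM, below both 90 min libraries, and 86.2% of the 90 min value in A and in B. From 90 min on nearly all Sgk1 RNA was new, so the fall from 90 to 120 min was a fall of RNA made in the presence of 4sU. CPM are shares of a library, so this is a fall relative to other transcripts, and these values do not show amounts per cell. Neither the number of cells nor the total RNA per cell can be read from them. Whether labelled reads were lost in alignment was not tested.

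Very few genes had both a turnover and a level like those of Sgk1. Within 0.05 of its NTR at 60 min (a fraction of 0.885) and within a factor of 2 of its mean count there was 1, Ccn2 (ENSMUSG00000019997). It encodes connective tissue growth factor, a secreted matricellular protein induced by serum and by Yap. The next in distance among genes of like count was Ptgs2, with an NTR of 0.821 at 60 min, and the third was Zfp36l2, already at 0.681. Windows of 0.1 in NTR and a factor of 4 in count, chosen after seeing the data, added Ptgs2 and Ccn1, Klf6, Amotl2 and Fosl2 to Ccn2. Ptgs2 is the inducible cyclooxygenase, Ccn1 a matricellular relative of Ccn2, Klf6 a zinc finger transcription factor, Amotl2 an angiomotin that restrains Yap, and Fosl2 an AP-1 subunit.

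Per kilobase of the deposited gene length, the level of Sgk1 without 4sU was the highest of the 7, at 266 ± 7.37 CPM per kb (SD, n = 2). Ccn2 was at 229 ± 33.6, Ccn1 at 186 ± 25.4, Ptgs2 at 182 ± 32.4, Amotl2 at 78.9 ± 2.81, Klf6 at 47.5 ± 3.75 and Fosl2 at 46.3 ± 3.46 CPM per kb. Sgk1 and Ccn2 did not differ beyond their spread, nor did Ccn1 and Ptgs2, nor Klf6 and Fosl2.

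**Figure D2:**
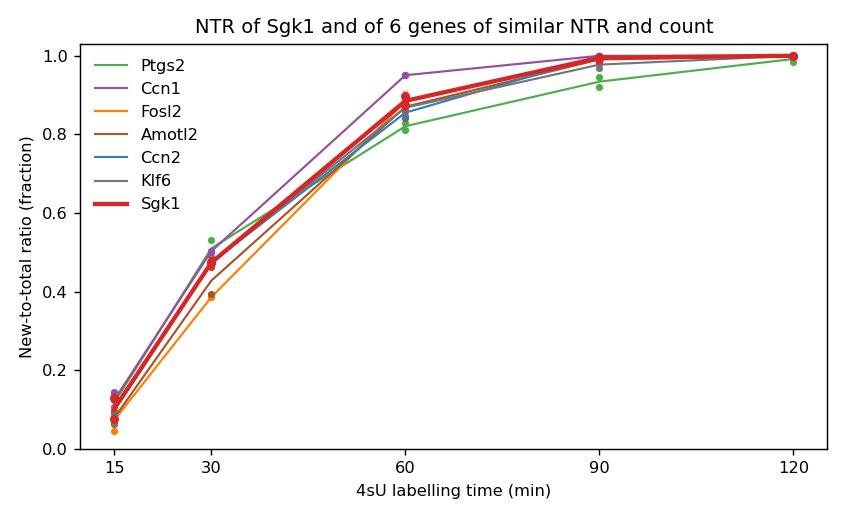
The NTR (fraction, y axis) is plotted against labelling time in min for Sgk1 (thick red) and for the 6 genes of similar NTR and count. Points are libraries, lines join the means of 2 libraries, and the pale red bars, mostly hidden behind the points, are the 90% intervals of Sgk1. At 30 min Sgk1, Ccn2 and Klf6 lie at 0.474, and Ptgs2 is the lowest at 60 and 90 min.

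The 6 genes were chosen for an NTR near that of Sgk1 at 60 min, so the turnover values that follow are a description. At 30 min the NTR was 47.4% ± 0.141 (SD, n = 2) for Sgk1, 47.4% ± 0.686 for Ccn2 and 47.4% ± 0.467 for Klf6. From 15 to 60 min the half-life of the older part was 13.1 min for Sgk1, 9.82 min ± 0.162 for Ccn1, 13.5 min ± 0.248 for Fosl2, 14.2 min ± 1.42 for Amotl2, 14.2 min ± 0.345 for Klf6, 15.1 min ± 0.270 for Ccn2 and 18.8 min ± 1.61 for Ptgs2.

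Their levels fell less. Ccn2 was at 628 and 510 CPM without 4sU, 615 and 605 CPM at 15 min and 572 and 549 CPM at 30 min. It was at 469 and 504 CPM at 60 min, 465 and 506 CPM at 90 min and 411 and 405 CPM at 120 min. Its libraries from 60 min on lay below all others, and its log2 fold change at 120 against 15 min was -0.58 ± 0.0718 (SE, edgeR quasi-likelihood adjusted p = 4.5e-05). Ptgs2 went a different way. It was at 708 and 912 CPM without 4sU, 872 and 830 CPM at 15 min and 780 and 816 CPM at 30 min. It was at 811 and 741 CPM at 60 min, 885 and 728 CPM at 90 min and 842 and 795 CPM at 120 min. These groups overlapped, and the change of Ptgs2 at 120 min was -0.06 ± 0.0902 (edgeR adjusted p = 0.694), although its NTR at 120 min was 99.2% ± 1.15 (SD, n = 2).

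At 120 against 15 min 5 of the 6 fell past the threshold of an adjusted p below 0.05 by edgeR, Ptgs2 being the exception. In this comparison 11.3% of all tested genes fell past it and 7.93% rose. Klf6 fell by 0.53 on the log2 scale, Ccn1 by 0.49, Amotl2 by 0.34 and Fosl2 by 0.31. The median of the 6 was -0.42 and that of all tested genes 0.01. Ccn1 did not pass without 120 min replicate B (edgeR adjusted p = 0.0754) or without 15 min replicate A (edgeR adjusted p = 0.0626), and Fosl2 did not pass without 120 min replicate B (edgeR adjusted p = 0.0509). At 60 against 15 min, where 0.0173% of tested genes fell past the threshold, 1 of the 6 did so in the fit of all libraries, Klf6 at -0.37 ± 0.0649 (edgeR adjusted p = 0.0474). That call was lost when any single 15 or 60 min library was left out (edgeR adjusted p from 0.169 to 1). Which genes passed at 60 min depended on the fit, as did the number passing among all genes, given in the closing section. All 6 passed in a fit of the 2 groups alone, 5 without the filter on low counts (not Ptgs2), Klf6 and Ccn2 by DESeq2, and Klf6 and Ccn1 with the replicate block. At 90 against 15 min, where 1.01% of tested genes fell, 4 of the 6 did so: Klf6, Ccn1, Ccn2 and Amotl2. Against the unlabelled libraries, which are compared with the same 120 min libraries, 5 of the 6 fell at 120 min, as did 8.78% of tested genes.

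**Figure D3:**
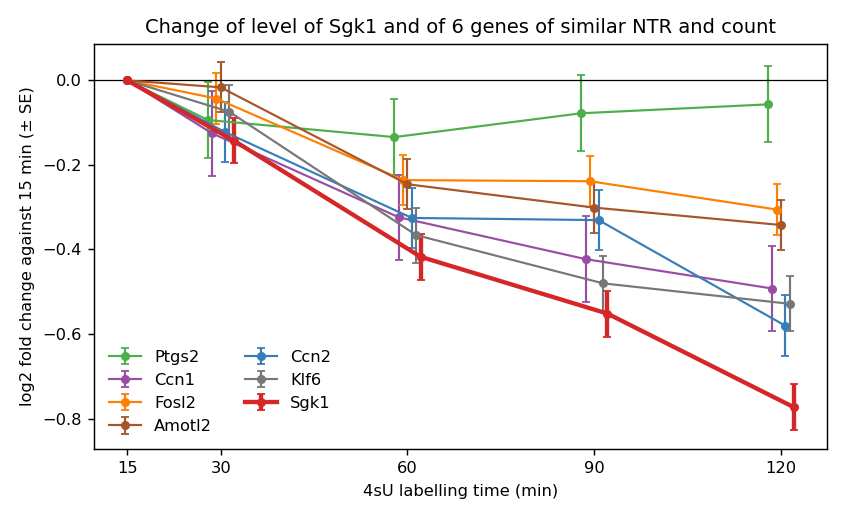
Log2 fold change against 15 min (y axis, error bars are the SE from the edgeR fit) is plotted against labelling time in min for Sgk1 (thick red) and the 6 genes of similar NTR and count, drawn side by side at each time. Sgk1 is the lowest at each time, ending at -0.77, and Ptgs2 stays between -0.13 and -0.06.

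By point values Sgk1 had the lowest fold change of the 7 genes against 15 min at each duration from 30 to 120 min. Ccn1 and Ccn2 at 30 min (-0.13 and -0.12) and Klf6 at 60 min (-0.37) lay within the SE of Sgk1. Its first place at 30 and 60 min is therefore not resolved. The difference between Sgk1 and the other genes was not tested, because Sgk1 was chosen for its fall. Between 90 and 120 min the part made during labelling changed to 88.5% and 80.2% of its value in Ccn2 (A and B), close to the 86.2% of Sgk1. It was 94.6% and 96.4% in Ccn1, 95.4% and 96.5% in Fosl2, 95.6% and 103% in Klf6, 102% and 94.9% in Amotl2, and 98.8% and 119% in Ptgs2. Ccn2 thus shared the late decline of new RNA in both replicates.

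Without the condition on count, 99 tested genes of mean count 100 or more lay within 0.1 of the NTR of Sgk1. At 120 against 15 min 36 of them fell past the threshold and none rose (0 of 99 by edgeR), beside 11.3% lower and 7.93% higher among all tested genes. Their median log2 fold change was -0.24. Against 15 min, Sgk1 was lowest of these 100 genes at 120 min, 2nd at 90 min, 6th at 60 min and 16th at 30 min. Over all 9065 genes of mean count 100 or more, 381 had a lower fold change against 15 min at 30 min. At 60 min 16 were lower, at 90 min 16 and at 120 min 14. Against the unlabelled libraries 40 were lower at 60 min and 16 at 120 min. Those below Sgk1 at 60 against 15 min included Klf2, Lif and Dusp5, short-lived transcripts of a transcription factor, a cytokine and a MAP kinase phosphatase. Their mean counts were 224, 235 and 792 against 7940 for Sgk1, and their NTR at 60 min was 0.966, 0.863 and 0.933. Most of the genes below Sgk1 had a lower NTR than Sgk1. It was 0.610 in Has2, which had the lowest fold change, and 0.386 in Gm49797. All these genes were named after their values were seen. Of the 498 genes with at least 0.5 times the count of Sgk1, none was lower at 30, 60, 90 or 120 min against 15 min (0 genes), and 1 was lower at 120 min against the unlabelled libraries.

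**Figure D4:**
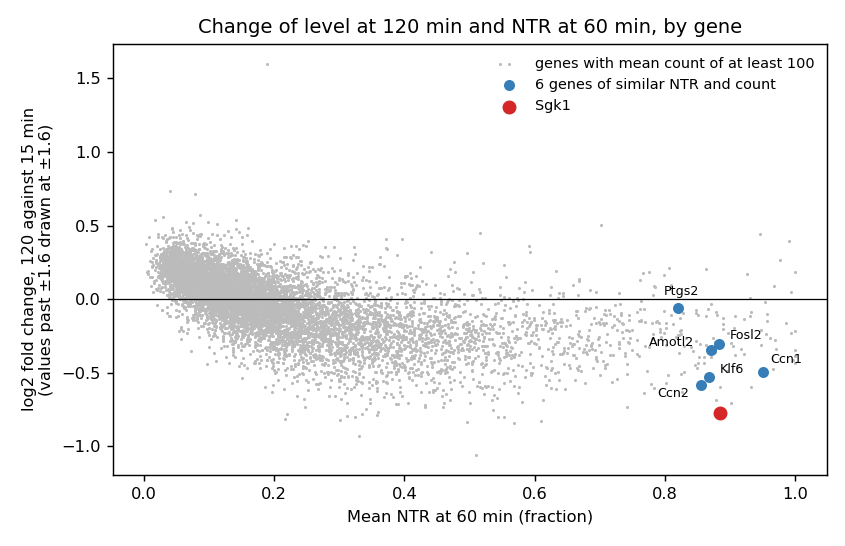
Each point is a gene of mean count 100 or more, placed by its mean NTR at 60 min (x axis, fraction) and its log2 fold change at 120 against 15 min (y axis, values past ±1.6 drawn at ±1.6). Sgk1 (red) at 0.885 and -0.77 lies below the 6 genes of similar NTR and count (blue), of which Ptgs2 is at -0.06 and Ccn2 at -0.58.

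The genes whose level followed that of Sgk1 most closely over the 12 libraries were found by Pearson's r of log2(CPM + 1). They were Zfp160 (r = 0.980), Tiparp (0.977), Dcp1a (0.975), Cldn12 (0.972), Zfp330 (0.972) and Wsb1 (0.970), out of 9064 genes ranked. All libraries of a group share a duration, so these values mainly reflect a fall with labelling time, and they are a description. Tiparp, a mono-ADP-ribosyltransferase, was at 87.3 ± 7.38 CPM (SD, n = 2) without 4sU and 53.5 ± 2.93 CPM at 120 min, with a log2 fold change of -0.73 at 120 against 15 min. Dcp1a, an activator of mRNA decapping, changed by -0.48, Cldn12, a claudin of cell junctions, by -0.40, and Wsb1, a ubiquitin ligase adaptor, by -0.63. Their NTR at 60 min was lower than that of Sgk1, between 0.372 in Zfp330 and 0.742 in Tiparp. Among the genes of similar NTR and count r was 0.952 for Klf6, 0.932 for Amotl2, 0.906 for Ccn2, 0.895 for Fosl2, 0.794 for Ccn1 and 0.09 for Ptgs2.

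Sgk1 was the only family member with an appreciable level. Sgk2 had 1 read in 120 min replicate B and none in the other libraries (0 reads), and Sgk3 had between 0 and 5 reads per library. Neither passed the filter on low counts.

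Other genes of the Sgk1 pathway were taken from lists of 51 genes besides Sgk1, of which 46 passed that filter. None of the 46 passed the threshold at 60 against 15 min (0 by edgeR), where 0.0346% of all tested genes did, or at 90 against 15 min (0 by edgeR), where 1.06% did. At 120 against 15 min 18 passed, 7 higher and 11 lower. This is 39.1% of the 46, beside 19.3% of all tested genes, and the median log2 fold change was -0.13 beside 0.01. With library size alone as the scaling the split was 2 higher and 17 lower. When any single 15 or 120 min library was left out, fewer of the 46 passed, and fewer of all tested genes passed as well. Pik3cb was the only gene that passed in each of these 4 fits. Against the unlabelled libraries, compared with the same 120 min libraries, 6 of the 46 were higher and 5 lower, beside 14.2% of all tested genes in either direction (5.43% higher and 8.78% lower). In the 120 against 15 min comparison the NTR at 60 min was between 4.81% and 21.5% in the 7 that rose and between 17.6% and 100% in the 11 that fell.

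Of the 14 genes that activate the kinase or set phosphoinositide levels, 2 rose and 5 fell at 120 against 15 min. Among all tested genes 7.93% rose and 11.3% fell. Against the unlabelled libraries 1 of the 14, Akt1, was higher and none was lower (0 by edgeR), beside 5.43% higher and 8.78% lower among all tested genes. Rictor, the defining subunit of mTORC2, fell by 0.42 ± 0.10 on the log2 scale (SE, edgeR adjusted p = 0.0067). Pik3cb, a catalytic subunit of phosphoinositide 3-kinase, fell by 0.37, Pdpk1, which encodes Pdk1, by 0.33 and the regulatory subunit Pik3r1 by 0.33. Against the unlabelled libraries these 4 missed the threshold, with edgeR adjusted p of 0.0883 for Rictor, 0.0601 for Pik3cb, 0.103 for Pdpk1 and 0.0536 for Pik3r1. Of 11 tested substrates and partners, Foxo1 fell by 0.66 ± 0.168 (edgeR adjusted p = 0.0102) at a mean count of only 77.3. Gsk3b fell by 0.29 and Tsc2, a brake on mTORC1, rose by 0.20. The share that passed at 120 against 15 min was 27.3% of the 11, beside 19.3% of all tested genes. Foxo1 and Gsk3b did not pass against the unlabelled libraries, and Tsc2 did. Nedd4l was at -0.17 (edgeR adjusted p = 0.0702) and Ndrg1 at -0.17 (edgeR adjusted p = 0.138). Of 6 ubiquitin ligases and factors of ER-associated degradation, Nedd4 rose by 0.20 and the other 5 did not pass, a share of 16.7% beside the same 19.3%. With library size alone as the scaling, Nedd4 and Tsc2 did not pass (edgeR adjusted p = 0.0653 and 0.107). Tsc2 did not pass by DESeq2 either (adjusted p = 0.0693).

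**Figure D5:**
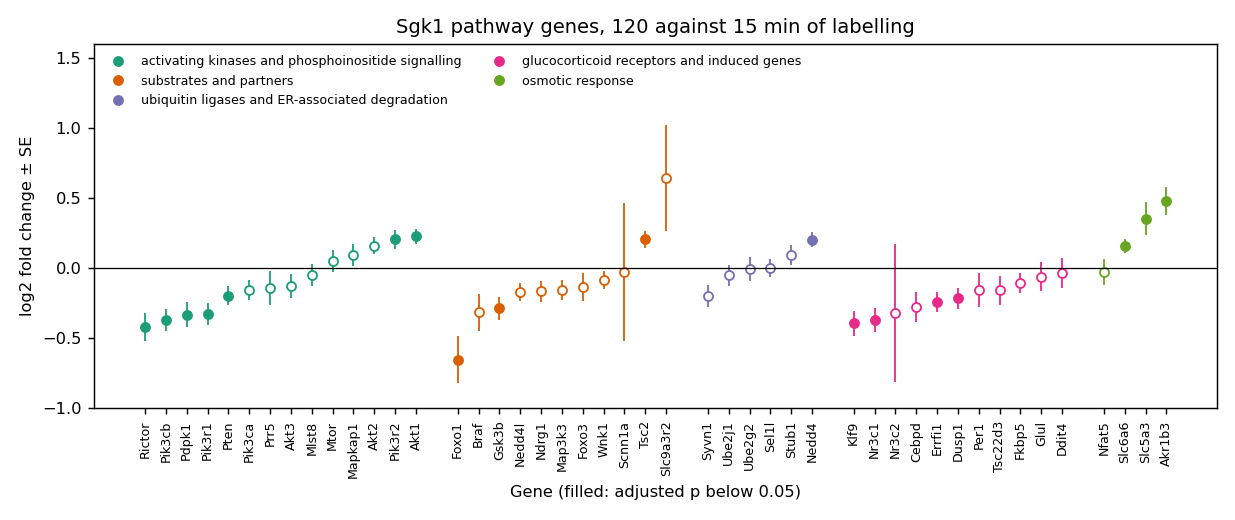
Log2 fold change at 120 against 15 min (y axis, error bars are the SE from the edgeR fit) for the 46 tested pathway genes, grouped by colour and ordered within each group on the x axis. Filled points have an adjusted p below 0.05, and they number 7 above 0 and 11 below 0.

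The glucocorticoid and osmotic lists hold genes that share inducers with Sgk1, and the difference between these lists was not tested. Of 11 tested glucocorticoid receptor and target genes 4 fell and none rose (0 by edgeR; the median was -0.22), beside 11.3% lower and 7.93% higher among all tested genes. Klf9, a transcription factor, fell by 0.40 ± 0.0867 on the log2 scale (SE, edgeR adjusted p = 0.00379), the glucocorticoid receptor Nr3c1 by 0.37, Errfi1, an inhibitor of the EGF receptor, by 0.24 and Dusp1, a MAP kinase phosphatase, by 0.22. With any single 15 or 120 min library left out, the change of Klf9 was -0.50 to -0.30 and that of Nr3c1 -0.44 to -0.31. For Errfi1 it was -0.29 to -0.20 and for Dusp1 -0.32 to -0.12. As given above, Pik3cb alone passed in all of these fits, so the calls of Klf9, Nr3c1, Errfi1 and Dusp1 were not kept throughout. Dusp1 had an edgeR adjusted p of 0.0475 and did not pass by DESeq2 (adjusted p = 0.0666). Tsc22d3 was at -0.16 (edgeR adjusted p = 0.303) and Per1 at -0.16 (edgeR adjusted p = 0.375). Of 4 tested osmotic response genes 3 rose, as did 7.93% of all tested genes. Akr1b3, aldose reductase, rose by 0.48 ± 0.101 (edgeR adjusted p = 0.00307), Slc5a3, the myo-inositol transporter, by 0.35 and Slc6a6, the taurine transporter, by 0.16, and Nfat5 was at -0.03. With library size alone as the scaling Slc5a3 and Slc6a6 did not pass (edgeR adjusted p = 0.0847 and 0.147). Neither passed when any single 15 or 120 min library was left out (edgeR adjusted p from 0.0859 to 0.242), and Akr1b3 did not pass without 15 min replicate A (edgeR adjusted p = 0.076). With the unlabelled libraries as reference, Klf9, Nr3c1, Errfi1 and Dusp1 were lower and Akr1b3, Slc5a3 and Slc6a6 higher at 120 min.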

How the data were processed

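SLAM-seq libraries of NIH-3T3 cells were analysed from a single deposited table. Its estimated counts per gene and library were deposited by the authors unscaled. Of these values 20.4% were not whole, and they were rounded for testing. The NTR was deposited as a fraction, per the file headers, as posterior maximum (used here) and mean, beside the 0.05 and 0.95 quantiles. The submitters' processing notes name cutadapt, Bowtie2 2.3.0 and STAR 2.7.10b, without roles. Build, annotation, counter and strand setting were not given in the sources used here.

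Counts were filtered with filterByExpr (11564 genes) and TMM-scaled, with factors between 0.970 and 1.02. The fit was by edgeR 4.0.16 (R 4.3.3) quasi-likelihood over all 12 libraries, with Benjamini-Hochberg adjustment over all genes. DESeq2 1.42.0 was an alternative. On simulated counts for 120 against 15 min (11564 genes), 88 of 100 genes changed by 1 on the log2 scale and 70 of 100 changed by 0.5 were recovered. Of the unchanged genes 9 were called. All genes were simulated with the same spread between libraries, so recovery in the data may differ. The part made during labelling was CPM times NTR. Half-lives from the NTR alone used values below 0.99. The slope of the older part ran from 15 to 90 min, not to 120 min as designed, since that part was 0 at 120 min. Slopes and steps joined libraries by replicate letter, and the labels do not say whether a letter marks a shared culture. Totals per library of 9917026 to 13739380 reads set the precision of counts. Sgk1, the gene lists and the rules were chosen with earlier results of these data known. The rule named the Sgk family, the largest called changes of each pathway list (at most 4), the nearest genes in NTR and count, and 6 genes nearest in pattern. Nedd4l, Ndrg1, Tsc22d3, Per1 and Nfat5 fall outside this rule and were added, after their values were seen, for their roles. Python 3.11.15, numpy 2.4.6, pandas 2.3.3 and matplotlib 3.10.9 were used. Replicates carry letters shared across groups, and blocked fits were an alternative.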

Additional observations from a re-analysis of the deposited data

How the results depend on the processing

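The fall of Sgk1 had the same direction in each of the 40 alternative estimates, which share fits and libraries and are not independent. Library size alone moved it most by scaling, to -0.79 at 120 min against no4sU and -0.83 against 15 min. Leaving out a library gave -0.45 to -0.30 at 60 min against no4sU, -0.50 to -0.35 against 15 min, -0.76 to -0.70 at 120 min against no4sU and -0.80 to -0.75 against 15 min. The NTR at 60 min was 0.874 to 0.896 without a replicate and at 120 min it was 1, and the apparent half-life at 60 min was 18.3 to 20.1 min. The half-life of the older part was 8.69 to 9.95 min without a replicate, 8.34 min from 30 to 90 min only and 13.1 min from 15 to 60 min only. The rank of Sgk1 at 60 min moved to 6 without the condition on count. The number of genes past the threshold depended more on the settings. At 60 min against no4sU it was 2, with 15 by library size alone, 95 without a filter, 8 by DESeq2, 4 with the replicate block, 0 in a fit of the 2 groups (edgeR, 373 unadjusted) and 0 to 1213 without a library. At 60 against 15 min it was 4, with 52 without a filter, 8 by DESeq2, 144 in a fit of the 2 groups and 0 to 4 without a library. At 120 min against no4sU it was 1643, with 1059 by DESeq2, 171 in a fit of the 2 groups and 452 to 3533 without a library. At 120 against 15 min it was 2228 (917 higher and 1311 lower), with 426 higher and 1867 lower by library size alone, 1453 by DESeq2, 3818 in a fit of the 2 groups and 657 to 1037 without a library. The pathway count of 18 became 4 to 8 without a library, and Ccn2, the 1 gene of like NTR and count, passed at 120 against 15 min in each fit. The cause of these shifts was not tested. Correlations of replicate deviations between groups ran from -0.129 to 0.150, with 3 of 15 above 0.1. They cannot decide whether a letter marks a shared culture, since the spread of single libraries also enters these deviations. With the replicate block the fall of Sgk1 at 120 against 15 min was -0.77 and 18 pathway genes passed. Not run were the half-life at 120 min and a slope to 120 min (NTR of 1), the slope by posterior mean (1 at 90 min in A) and an NTR window of 0.025, which held no other gene of like count. With 2 libraries a group, small changes between neighbouring durations cannot be resolved.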
